A study of Mus musculus with 2 samples.

Results

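The p53 pathway was described here through 10 mouse genes: Trp53, which encodes p53, its regulator Mdm2, the growth arrest gene Cdkn1a, which encodes p21, and the target genes Ccng1, Bax, Bbc3, Pmaip1, Eda2r, Zmat3 and Phlda3. They were chosen by gene name from 35275 genes in the deposited tables, and all 10 were found there. The choice was made with earlier results of these data known. RNA sequencing had been done on 2 livers of C57BL/6 mice aged 10 months, 1 labelled LTsc1KO, with the genotype TSC1-/-, and 1 labelled wild type. LTsc1KO stands for a liver-specific knockout of Tsc1, which encodes hamartin; with tuberin this protein holds the growth kinase mTORC1 in check. The series presents it as a model of liver cancer without inflammation and speaks of tumour tissue, whereas both labels say liver. The sources used here do not give the driver of the deletion, the exons removed, the sex of the mice or any allele carried by the control. With 1 library per genotype no difference has a replicate check and none is given a p-value, and genotype cannot be told apart from the 2 individual animals.

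p53 is a transcription factor that binds pairs of 10-base elements in DNA and switches on genes of growth arrest, repair and cell death. It is held low by Mdm2, a ubiquitin ligase that marks p53 for destruction and whose own gene p53 switches on, so that the pair forms a feedback loop. Because p53 is controlled mostly at the protein level, the level of Trp53 RNA is not a measure of its activity. In liver, p21 is known as a brake on hepatocyte division during regeneration.

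The DNA just upstream of these genes is shown first, since the elements that p53 reads are short enough to be seen in it. Promoter windows of 300 bases, 250 before and 50 after a start site, were taken from RefSeq (GRCm38.p6) for 8 of the 10 genes, in 11 windows, and searched for the p53 decamer: 3 purines, C, 2 bases that are A or T, G and 3 pyrimidines, which reads the same on both strands. An exact decamer was present for 5 of these 8 genes (Cdkn1a, Ccng1, Bax, Mdm2 and Trp53), against 9.55% of all 27025 genes with a window. Pairs of decamers with a spacer of 0 to 13 bases were then scored by their mismatches to the consensus, with the C and the G required. Zmat3 and Pmaip1 are named without a window.

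The 4 windows printed here hold the closest pair of Cdkn1a, Ccng1, Bax and Bbc3, each read 5′ to 3′ on the strand of its gene. Capitals mark the decamers of that pair and, for Cdkn1a, also a further decamer that follows without a spacer. The Cdkn1a window is the upstream of 2 and lies at chr17:29090729-29091028, plus strand. Those of Ccng1, Bax and Bbc3 lie at chr11:40755237-40755536 (minus), chr7:45466849-45467148 (minus) and chr7:16309333-16309632 (plus). The downstream Cdkn1a window, not printed, had no exact decamer, and its closest pair had 5 mismatches.
Cdkn1a: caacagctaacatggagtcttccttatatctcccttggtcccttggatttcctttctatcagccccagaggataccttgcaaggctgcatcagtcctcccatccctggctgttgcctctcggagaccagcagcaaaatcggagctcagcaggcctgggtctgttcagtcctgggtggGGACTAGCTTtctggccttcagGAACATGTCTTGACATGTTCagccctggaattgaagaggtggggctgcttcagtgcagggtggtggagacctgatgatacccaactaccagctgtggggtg
Ccng1: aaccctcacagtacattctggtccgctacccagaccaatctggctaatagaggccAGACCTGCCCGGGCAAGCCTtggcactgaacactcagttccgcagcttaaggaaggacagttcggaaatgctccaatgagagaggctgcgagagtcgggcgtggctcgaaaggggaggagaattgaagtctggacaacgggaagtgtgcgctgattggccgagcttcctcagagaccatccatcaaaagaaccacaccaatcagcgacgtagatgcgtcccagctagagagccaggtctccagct
Bax: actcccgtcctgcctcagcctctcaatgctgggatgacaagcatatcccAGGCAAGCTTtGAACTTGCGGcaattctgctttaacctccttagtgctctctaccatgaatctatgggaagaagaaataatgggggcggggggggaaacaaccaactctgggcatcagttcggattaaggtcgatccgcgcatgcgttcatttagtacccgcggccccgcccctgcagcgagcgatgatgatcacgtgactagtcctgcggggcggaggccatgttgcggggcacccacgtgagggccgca
Bbc3: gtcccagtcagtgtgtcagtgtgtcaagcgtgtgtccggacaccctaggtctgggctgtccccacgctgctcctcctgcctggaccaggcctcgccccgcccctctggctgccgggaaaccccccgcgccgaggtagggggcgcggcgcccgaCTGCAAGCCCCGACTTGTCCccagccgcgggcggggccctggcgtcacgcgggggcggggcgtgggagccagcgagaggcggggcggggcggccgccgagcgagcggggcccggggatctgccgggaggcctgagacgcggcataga

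The Cdkn1a window held a pair with 0 mismatches, GGACTAGCTT and GAACATGTCT, at positions -73 and -51 from the start site and 12 bases apart. Only 0.0731% of all 32851 windows held such a pair. Its second decamer also formed an unspaced pair, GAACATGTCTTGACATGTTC, with 1 mismatch. Ccng1 had an unspaced pair with 1 mismatch at -195, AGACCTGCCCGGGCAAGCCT. An unspaced pair of this quality was present in 0.0670% of windows. In the Bax window the closest pair, at -201, had 2 mismatches, a score reached or bettered by 4.09% of windows, and in the first of 3 Bbc3 windows the closest pair, at -97, had 3, reached or bettered by 15.6%. Mdm2 and Trp53 each had an exact decamer, GAACTTGCCT at -186 and GGACTTGCCC at -75, while their closest pairs had 4 and 3 mismatches. Eda2r and Phlda3 had no exact decamer in these letters. A match is a description of the letters and not a binding site, and the window of Mdm2 does not reach the first intron, where its p53-responsive promoter is known to lie.

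RNA levels are given as FPKM, fragments per kilobase of transcript scaled to sequencing depth, as deposited. The reads behind them were recovered from the values (29351163 in all in the library labelled LTsc1KO and 27919645 in the library labelled wild type), and every interval below is a 95% exact interval on reads that covers counting error only. Tsc1 itself had 4.79 FPKM in the library labelled LTsc1KO and 4.90 in the library labelled wild type (ratio 0.976, interval 0.868 to 1.10), so the targeted gene does not check the labels, and each library is named by its label. Log2 ratios were taken as log2((FPKM + 1)/(FPKM + 1)), LTsc1KO over wild type, which understates the difference of low genes. Genes that reached 1 FPKM in either library were called expressed. The median log2 ratio of these 12395 genes was 0.70, and 85.3% of the genes that differed 2-fold were higher. With the median ratio set to 0, by taking a log2 shift of 0.72 off the library labelled LTsc1KO, that share was 55.1%. The shift of 0.72 is the median log2 ratio, without the added 1, of the 10067 genes with at least 1 FPKM in both libraries. Each gene below is therefore to be read against this shift, which as a ratio is 1.64. Read this way, Tsc1 had a log2 ratio of -0.59 with the median ratio set to 0, and its interval lay below 1.64. Of expressed genes 78.8% had a higher log2 ratio than Tsc1. Whether this reflects the deletion was not tested.

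As a group the 10 genes were higher in the library labelled LTsc1KO: 9 were at least 2-fold higher, none was lower, and their median log2 ratio was 2.09. Among all expressed genes 35.6% were at least 2-fold higher and 6.15% at least 2-fold lower. With the median ratio set to 0, 6 of the 10 were still at least 2-fold higher and none lower, against 15.6% and 12.7% of 11851 expressed genes, and the median of the 10 was 1.45. The 3 that dropped under 2-fold were Mdm2, Ccng1 and Bax. By log2 ratio 6 of the 10 stood among the highest 10% of expressed genes. All 10 counted as expressed, Pmaip1 and Eda2r only through the library labelled LTsc1KO. More cells of a type and more RNA per cell cannot be told apart in these bulk libraries.

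**Figure D1:**
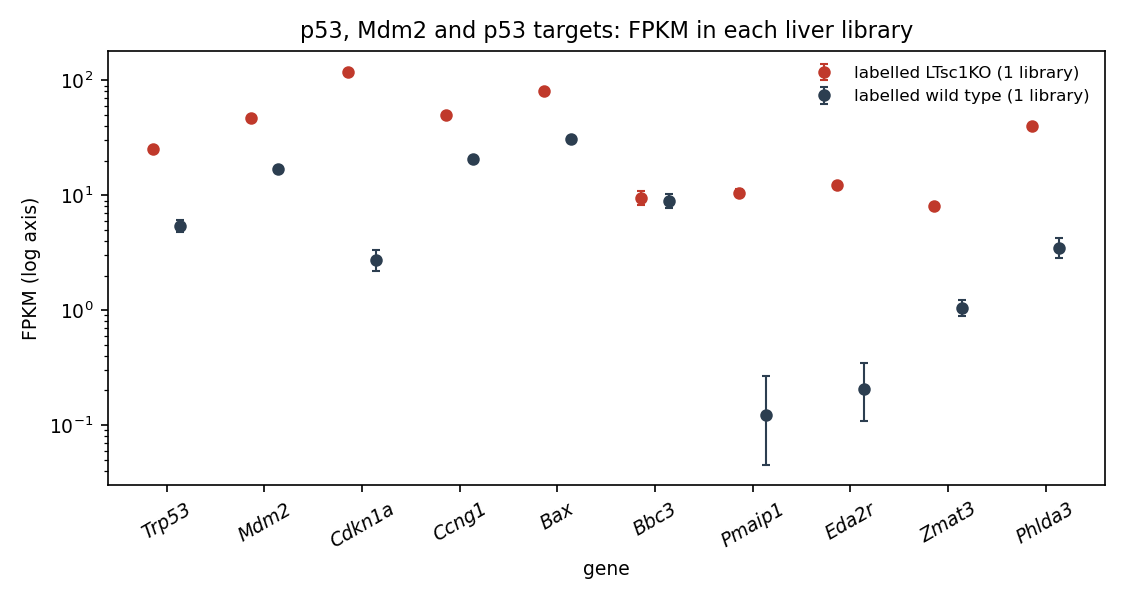
FPKM of the 10 genes (log axis) in the library labelled LTsc1KO (red, left of each pair) and the library labelled wild type (dark, right); bars are 95% exact counting intervals, hidden where smaller than the point. Bbc3 was at 9.51 in LTsc1KO and 8.92 in wild type, and the other 9 genes were further apart, with Cdkn1a at 118 in LTsc1KO and 2.72 in wild type.

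Trp53 (ENSMUSG00000059552; chromosome 11, 69580359 to 69591873, on the plus strand; all gene positions are from GENCODE M21 on GRCm38) had 25.2 FPKM (1343 reads) in the library labelled LTsc1KO and 5.40 (274 reads) in the library labelled wild type. Its FPKM ratio was 4.66 (interval 4.09 to 5.33) and its log2 ratio 2.03, or 1.35 with the median ratio set to 0. Only 8.54% of expressed genes had a higher log2 ratio. Mdm2 (ENSMUSG00000020184; chromosome 10, 117688875 to 117710758, minus strand) was at 46.7 (2304 reads) in the library labelled LTsc1KO and 16.8 (789 reads) in the library labelled wild type, a ratio of 2.78 (2.56 to 3.02). Its log2 ratio of 1.42 became 0.72 with the median ratio set to 0. The intervals of the p53 and Mdm2 ratios did not overlap, p53 having the higher ratio.

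Cdkn1a (ENSMUSG00000023067; chromosome 17, 29090976 to 29100727, plus strand), the inhibitor of cyclin-dependent kinases, was the gene of the 10 with the highest log2 ratio. It had 118 FPKM (4066 reads) in the library labelled LTsc1KO and 2.72 (89 reads) in the library labelled wild type. The FPKM ratio was 43.5 (35.2 to 54.2). Its log2 ratio of 5.002 held rank 51 among the 12395 expressed genes, and it was 4.29 with the median ratio set to 0. In the library labelled LTsc1KO it was the most abundant of the 10, with 29.5% of their summed FPKM, whereas in the library labelled wild type it came seventh, with 3.02%.

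Ccng1, Phlda3 and Zmat3 are further target genes. Ccng1 (ENSMUSG00000020326; chromosome 11, 40748552 to 40755311, minus strand) encodes cyclin G1, which recruits a phosphatase that acts on Mdm2. It had 49.8 FPKM (3155 reads) in the library labelled LTsc1KO and 20.6 (1239 reads) in the library labelled wild type, a ratio of 2.42 (2.27 to 2.59) and a log2 ratio of 1.24, or 0.54 with the median ratio set to 0. Phlda3 (ENSMUSG00000041801; chromosome 1, 135766119 to 135769136, plus strand) encodes a pleckstrin homology protein that competes with AKT for membrane lipids. Its values were 40.4 (1189 reads) in the library labelled LTsc1KO and 3.50 (98 reads) in the library labelled wild type. The FPKM ratio was 11.5 (9.39 to 14.3), and the log2 ratio, with the pseudocount, was 3.20, or 2.51 with the median ratio set to 0. Zmat3 (ENSMUSG00000027663; chromosome 3, 32334792 to 32366014, minus strand), a zinc finger protein that binds RNA and affects splicing, was at 8.10 (1260 reads) in the library labelled LTsc1KO and 1.04 (154 reads) in the library labelled wild type. Its FPKM ratio was 7.78 (6.58 to 9.26) and its log2 ratio 2.16, or 1.54 with the median ratio set to 0. These 3 genes thus spanned a wide range, all above the shift of all genes, Ccng1 the least far and Phlda3 the furthest.

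The death genes differed among themselves. Bax (ENSMUSG00000003873; chromosome 7, 45461697 to 45466898, minus strand), which forms pores in the mitochondrial outer membrane, had 80.7 FPKM (2059 reads) in the library labelled LTsc1KO and 30.8 (747 reads) in the library labelled wild type, a ratio of 2.62 (2.41 to 2.85) and a log2 ratio of 1.36, or 0.66 with the median ratio set to 0. Bbc3 (ENSMUSG00000002083; chromosome 7, 16308393 to 16318205, plus strand) encodes Puma, a BH3-only protein that frees or activates Bax. It was nearly equal, at 9.51 (222 reads) in the library labelled LTsc1KO and 8.92 (198 reads) in the library labelled wild type. Its FPKM ratio was 1.07, with an interval of 0.877 to 1.30 that holds 1 and lies below the median ratio of 1.64, and its log2 ratio of 0.08 became -0.55 with the median ratio set to 0. Of expressed genes 75.5% had a higher log2 ratio than Bbc3.

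Pmaip1 (ENSMUSG00000024521; chromosome 18, 66458533 to 66465565, plus strand) encodes Noxa, a BH3-only protein that binds Mcl1. It had 10.5 FPKM (544 reads) in the library labelled LTsc1KO and 0.122 (6 reads) in the library labelled wild type. The FPKM ratio of 86.2 (39.4 to 236) rests on those 6 reads, and the deposited values also allow 3, 9 or 12. Its log2 ratio was 3.36, or 2.72 with the median ratio set to 0. Eda2r (ENSMUSG00000034457; chromosome X, 97333840 to 97377216, minus strand), a receptor of the tumour necrosis factor family that binds the A2 form of ectodysplasin, was at 12.2 (817 reads) in the library labelled LTsc1KO and 0.204 (13 reads) in the library labelled wild type. This is a ratio of 59.8 (34.8 to 113) and a log2 ratio of 3.46, or 2.81 with the median ratio set to 0. The intervals of the Pmaip1, Eda2r and Cdkn1a ratios overlapped, so their order by FPKM ratio was not resolved at this depth.

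**Figure D2:**
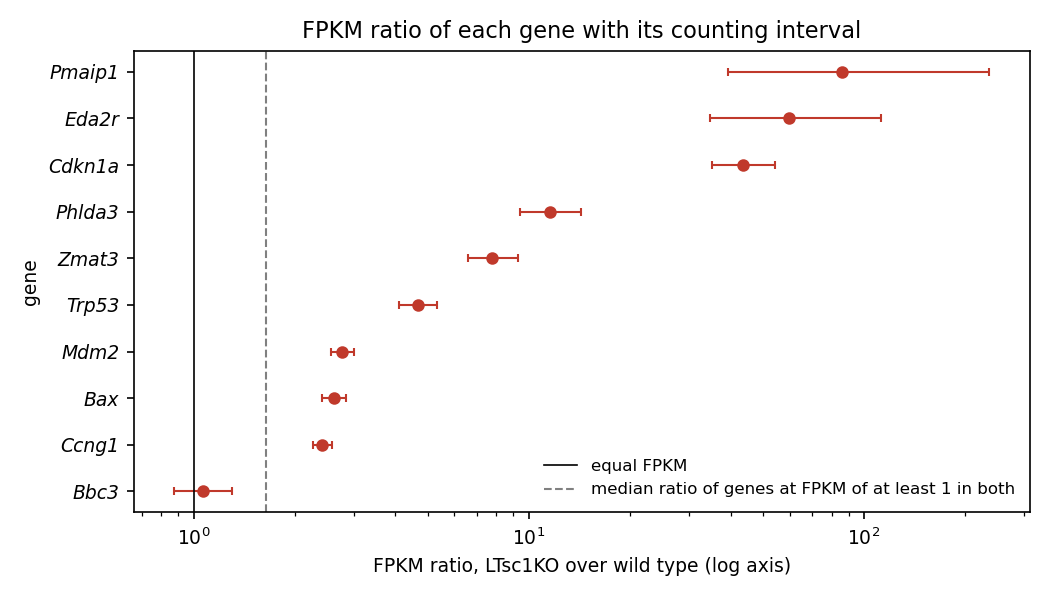
FPKM ratio of each gene (LTsc1KO over wild type, log axis) with its 95% exact counting interval. The solid line marks equal FPKM. The dashed line is the median ratio of 1.64, over genes with at least 1 FPKM in both libraries. Bbc3 lies at 1.07, Ccng1, Bax and Mdm2 between 2.42 and 2.78, and Cdkn1a, Eda2r and Pmaip1 between 43.5 and 86.2.

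The order of the 10 genes differed between the libraries. In the library labelled LTsc1KO the FPKM ran from Cdkn1a (118) and Bax (80.7) through Ccng1, Mdm2, Phlda3, Trp53, Eda2r, Pmaip1 and Bbc3 to Zmat3 (8.10). In that order the counting intervals of Ccng1 and Mdm2 overlapped, as did those of neighbours from Eda2r to Zmat3. In the library labelled wild type Bax led (30.8), followed by Ccng1, Mdm2, Bbc3, Trp53, Phlda3, Cdkn1a, Zmat3, Eda2r and Pmaip1 (0.122), where only Phlda3 with Cdkn1a and Eda2r with Pmaip1 overlapped. FPKM summed over all 10 was 401 in the library labelled LTsc1KO and 90.1 in the library labelled wild type.

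**Figure D3:**
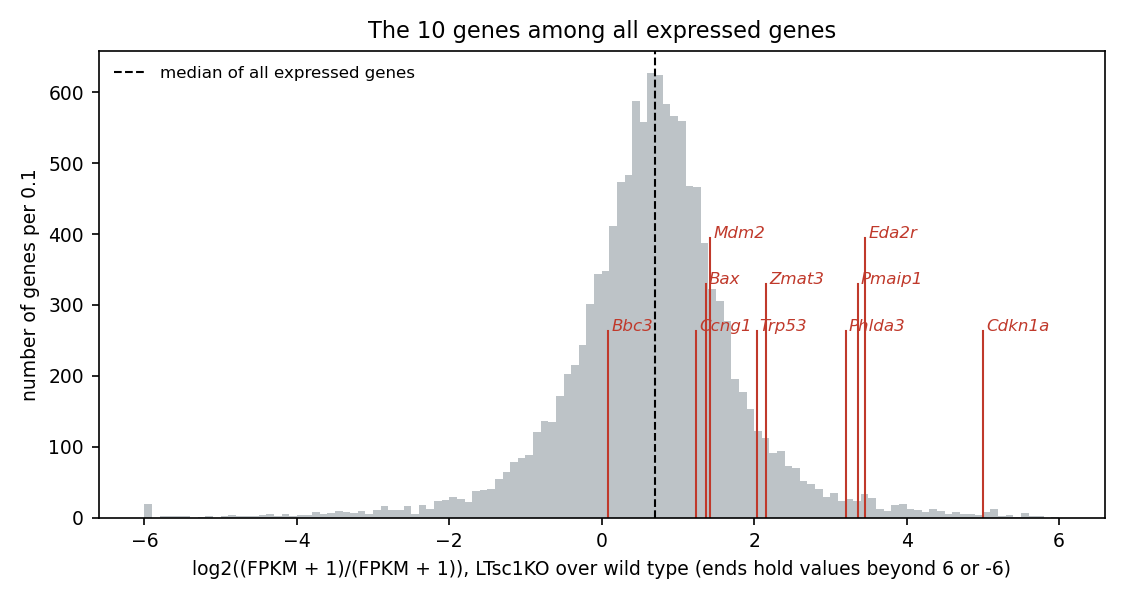
Number of expressed genes by log2 ratio (LTsc1KO over wild type) in steps of 0.1, with the 10 genes as red lines whose heights serve the labels only; the dashed line is the median of all 12395 expressed genes, 0.70. Bbc3, at 0.08, is the only one of the 10 left of the median.

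Other targets of p53 were counted in 3 lists of 44 genes in the tables, 42 of them expressed. There 24 genes were higher by 2-fold or more in the library labelled LTsc1KO, 3 were lower and the median log2 ratio was 1.10, beside the 35.6% and 6.15% of all expressed genes. With the median ratio set to 0 the counts were 9 higher and 4 lower and the median was 0.55, beside 15.6% higher and 12.7% lower among all expressed genes. The 10 genes above thus had the higher median on both scales. Both they and the lists were chosen with earlier results of these data known. No conclusion is therefore drawn from this difference, which was not tested.

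Targets of growth arrest and stress were taken first. Of 14 genes 13 were expressed, 3 of them only through the library labelled LTsc1KO. As deposited 7 were higher by 2-fold or more and none lower (median 1.27). With the median ratio set to 0, 5 were higher and none lower (median 0.61). Among all expressed genes the shares higher were 35.6% and 15.6% on these scales. Sfn, which encodes 14-3-3 sigma, a protein that retains mitotic kinase complexes in the cytoplasm, had 11.1 FPKM in the library labelled LTsc1KO and 0.377 in the library labelled wild type (ratio 29.3, interval 18.1 to 50.7). Ckap2, a protein of the mitotic spindle, was at 7.43 in the library labelled LTsc1KO and 0.0689 in the library labelled wild type (log2 ratio 2.98). Sesn2, a stress protein that restrains mTORC1 when leucine is short, was at 13.8 in the library labelled LTsc1KO and 1.32 in the library labelled wild type (ratio 10.4, 8.71 to 12.6). By contrast its relative Sesn1 (log2 ratio 0.04), the stress sensor Gadd45a (0.03) and the kinase Plk3 (-0.28) lay below the median of all genes, and with the median ratio set to 0 all 3 were negative (-0.53, -0.66 and -0.98). These 3 genes, like Bbc3, were listed here as p53 targets, and the reason for their lower ratios was not tested.

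Among targets of the death group log2 ratios as deposited ran from -0.09 for Fas to 2.23 for Tnfrsf10b. All 11 were expressed, 6 only through the library labelled LTsc1KO, with 7 higher by 2-fold or more and none lower (median 1.12). With the median ratio set to 0 there were 2 higher, Tnfrsf10b and Aen, and the median was 0.67. These counts stand beside 35.6% higher among all expressed genes as deposited and 15.6% with the median ratio set to 0. Tnfrsf10b, the mouse death receptor for TRAIL, had 4.27 FPKM in the library labelled LTsc1KO and 0.124 in the library labelled wild type (ratio 34.3, 19.0 to 69.3). Aen, a nuclease, and Siva1, an adaptor of death receptors, had log2 ratios of 1.84 and 1.36. The lowest were Fas, the receptor of Fas ligand, at 16.7 in the library labelled LTsc1KO and 17.8 in the library labelled wild type (ratio 0.936, 0.826 to 1.06), Ei24 (log2 ratio 0.74) and Pidd1 (0.85). The death receptors Tnfrsf10b and Fas therefore differed from each other in this comparison by more than their counting intervals.

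Targets of repair and metabolism held both higher and lower genes. Of 19 genes 18 were expressed, 10 at least 2-fold higher and 3 lower (median 1.07). With the median ratio set to 0, 2 were higher and 4 lower (median 0.44). All expressed genes had 35.6% higher and 6.15% lower as deposited, and 15.6% and 12.7% with the median ratio set to 0. Tap1, a peptide transporter of antigen presentation, Polk, a DNA polymerase that copies damaged templates, and Prkab1, a subunit of AMP kinase, had log2 ratios of 1.706, 1.705 and 1.597. The lower genes were the metabolic enzymes Aldh4a1 (-1.21), Dcxr (-1.33) and Ak1 (-4.83). Ak1, adenylate kinase 1, is abundant in skeletal muscle and had 0.212 FPKM in the library labelled LTsc1KO and 33.4 in the library labelled wild type. All 10 of 10 skeletal muscle markers were lower with it, summing to 3.07 in the library labelled LTsc1KO, where Tnnt3, Myh4 and Mb were listed at 0, and 3646 in the library labelled wild type; their part in the Ak1 value was not tested.

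**Figure D4:**
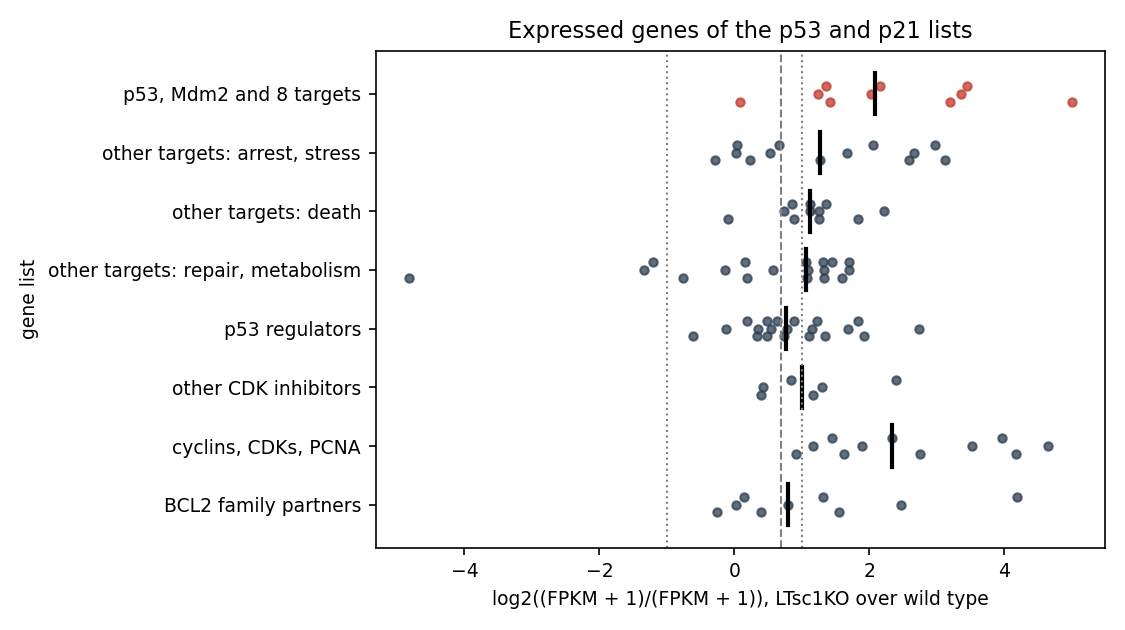
Log2 ratio (LTsc1KO over wild type) of each expressed gene of 8 lists, with a black bar at the list's median; the dashed line is the median of all expressed genes (0.70) and the dotted lines are the 2-fold limits. The 10 genes (red) have a median of 2.09, cyclins, CDKs and PCNA 2.34, and p53 regulators 0.76.

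Regulators of p53 stood near all genes. Of the 21 that were measured, 20 were expressed; 8 were higher by 2-fold or more and none was lower (median 0.76, or 0.14 with the median ratio set to 0, when 4 were higher and 1 lower). These counts stand beside 35.6% higher among all expressed genes as deposited, and 15.6% higher and 12.7% lower with the median ratio set to 0. The 3 highest, Chek1, Atm and Chek2, are kinases of the DNA damage response, and they are also the 3 that counted as expressed only through the library labelled LTsc1KO. Chek1 had 8.56 FPKM in the library labelled LTsc1KO and 0.438 in the library labelled wild type (ratio 19.5, 12.5 to 32.3), and Atm and Chek2 had log2 ratios of 1.93 and 1.83. Mdm4, the partner of Mdm2, was at 20.7 in the library labelled LTsc1KO and 22.5 in the library labelled wild type (ratio 0.919, 0.851 to 0.992). Its log2 ratio was -0.12 beside the 1.42 of Mdm2, or -0.79 with the median ratio set to 0. Rpl11, a ribosomal protein that can bind Mdm2, had log2 ratios of 0.18 as deposited and -0.53 with the median ratio set to 0. Sirt1, a deacetylase of p53, had -0.61 and -1.14 on these scales. Cdkn2a, which encodes the Mdm2 inhibitor Arf as well as p16, was under the expression limit, at 0.351 in the library labelled LTsc1KO and listed at 0 in the library labelled wild type. The family members Trp63 and Trp73 were not expressed in either library.

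The proteins that p21 binds were then examined. Of 12 cyclins, cyclin-dependent kinases and PCNA 11 were expressed, 5 of them only through the library labelled LTsc1KO, and 10 were higher by 2-fold or more, with none lower (median 2.34); 8 were with the median ratio set to 0 (median 1.72), beside 35.6% and 15.6% of all expressed genes. Cdk1, the mitotic kinase, had 37.5 FPKM in the library labelled LTsc1KO and 0.532 in the library labelled wild type (ratio 70.5, 42.5 to 126). Ccne1, cyclin E1, and Ccnb1, cyclin B1, had log2 ratios of 4.18 and 3.97. The smallest differences were in Ccnd1 (0.92), Ccnd3 (1.17) and Cdk2 (1.45), of which the first passes G1 signals and the last is the main target of p21. High p21 RNA and high RNA of the cyclins that it inhibits thus occurred in the same library; whether in the same cells cannot be told from bulk RNA.

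Other inhibitors of cyclin-dependent kinases had lower log2 ratios than Cdkn1a. All 6 expressed ones, 2 of them expressed only in the library labelled LTsc1KO, had positive log2 ratios as deposited, though those of Cdkn1c and Cdkn2d were -0.08 and -0.16 with the median ratio set to 0. Of the 6, 3 were at least 2-fold higher (median 1.00), or 1 of 5 on that other scale (median 0.18), beside 35.6% and 15.6% of all expressed genes. Cdkn1b, which encodes p27, the closest relative of p21 in sequence and role, was at 15.8 in the library labelled LTsc1KO and 6.53 in the library labelled wild type (ratio 2.43, 2.21 to 2.66). Cdkn1c (p57), Cdkn2c (p18) and Cdkn2d (p19) had log2 ratios of 0.43, 0.84 and 0.40. Cdkn2b (p15) was at 1.59 in the library labelled LTsc1KO and 0.0514 in the library labelled wild type, where it had 2 reads (ratio 30.9, 8.22 to 261). Cdkn3, a phosphatase of cyclin-dependent kinases that rises in dividing cells, was at 4.54 (206 reads) in the library labelled LTsc1KO and 0.0463 (2 reads) in the library labelled wild type (log2 ratio 2.40, FPKM ratio 98.0, interval 26.8 to 814).

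Among 10 partners of Bax, Puma and Noxa in the BCL2 family, 9 were expressed, 4 higher by 2-fold or more and none lower (median 0.80), where all expressed genes had 35.6% higher. With the median ratio set to 0, 2 were higher (median 0.091), where all genes had 15.6%. Bik counted as expressed only through the library labelled LTsc1KO. Bik, a BH3-only gene, was at 21.5 in the library labelled LTsc1KO and 0.228 in the library labelled wild type, where it had 6 reads (ratio 94.2, 43.0 to 258). Bid, which activates Bax, was at 41.2 in the library labelled LTsc1KO and 6.57 in the library labelled wild type (ratio 6.27, 5.44 to 7.24), and Bak1, the other pore former, stood at a log2 ratio of 1.55. The BH3-only genes Bmf (0.15) and Bcl2l11 (0.02) and the survival gene Bcl2l2 (-0.26) lay with Bbc3 below the median of all genes. BH3-only genes thus ranged from -0.55 for Bbc3 to 3.52 for Bik with the median ratio set to 0.

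The ligand of Eda2r was also measured. Eda, which encodes ectodysplasin, had 3.08 FPKM (301 reads) in the library labelled LTsc1KO and 0.269 (25 reads) in the library labelled wild type, a ratio of 11.5 (7.61 to 18.0). Its other receptor Edar had 1 read in each library. The adaptors Traf3 and Traf6 had log2 ratios of 1.53 and 0.67. Whether the A2 form of Eda that Eda2r binds was present cannot be read from a value per gene.

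Both libraries had the defining RNAs of liver. The 6 hepatocyte markers were Alb, Apoa1, Ttr, Hnf4a, Cps1 and Tat. They summed to an FPKM of 22658 in the library labelled LTsc1KO and 31998 in the library labelled wild type. As deposited 1 of the 6 was at least 2-fold lower. With the median ratio set to 0, 3 of the 6 were, and their median log2 ratio was -1.03. Cholangiocyte markers summed to 626 in LTsc1KO and 41.9 in wild type. Of these, 5 of 6 were at least 2-fold higher, or 2 of 5 with the median ratio set to 0, beside 35.6% and 15.6% of all expressed genes. Through LTsc1KO alone 4 of them counted as expressed. Their log2 ratios as deposited had a median of 1.39 and a highest of 4.71, so the sums do not speak for each marker. Macrophage markers summed to 96.9 in LTsc1KO and 35.9 in wild type (1 of 6 higher, Cd68, and 1 lower). Cd68 had a log2 ratio of 4.52, where the list's median was 0.77. Erythroid markers summed to 72.4 in LTsc1KO and 783 in wild type (4 of 6 lower), and neutrophil markers to 57.9 in LTsc1KO and 122 in wild type (2 of 5 lower). Lymphocyte markers summed to 3.99 in LTsc1KO and 3.27 in wild type, with 2 of 7 expressed. Endothelial markers summed to 33.2 in LTsc1KO and 17.9 in wild type. Of 4 expressed, 2 were higher, or none of 2 with the median ratio set to 0. Stellate cell markers summed to 24.3 in LTsc1KO and 159 in wild type. Of 4 expressed, 2 were higher and 1 lower, Des, which is also a muscle gene. Des, at a log2 ratio of -6.71, held most of the wild-type sum and was also counted among the skeletal muscle markers. The stellate sums are therefore mainly those of Des. With the median ratio set to 0, 1 of 3 stellate markers was higher and 1 lower. All these marker counts stand beside 35.6% higher and 6.15% lower among all expressed genes as deposited. With the median ratio set to 0 those shares were 15.6% and 12.7%. The part of these cell types in the values of the 10 genes was not tested.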

How the data were processed

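Livers were frozen on dry ice and RNA was taken with an RNeasy Plus Mini kit, per the labels' protocols. Both files hold FPKM as deposited by the authors, with a single value column each. Bowtie 0.12.2, CASAVA 1.7 and the build mm8 stand in the submitters' processing notes, without their roles. The sources used here do not give the counter, its annotation or any use of strand. Coordinates are GRCm38 positions in GENCODE M21, a later build, and promoter coordinates are those of RefSeq on GRCm38.p6. In that annotation Cdkn1a shares 273 and Bax 192 exon bases with a gene that is not in the tables (AC167363.2 and Gm45808).

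Of 35275 gene IDs 34490 (97.8%) matched a symbol, and values of 3 symbols with more than 1 ID were summed. FPKM from whole reads are multiples of the worth of 1 read. Totals came from the genes with 1 read. A gene's reads were the pair of whole numbers whose ratio equals that of its 2 values within the printed decimals and whose implied length is whole and between 0.5 and 1.6 times the annotated mean; among 2000 genes 91.4% had one, against 0.2% after a shift of up to 0.1%. Of the 10 genes 8 had 1 solution, and Bbc3 and Pmaip1 had several, of which the nearest to the annotated length was used. Other genes without one had reads estimated from the annotated length. Reads gave exact Clopper-Pearson intervals for ratios and exact Poisson intervals for levels. No count model and no test was used, since each group has 1 library.

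A pseudocount of 1, a minimum of 1 FPKM in either library and a 2-fold limit were used. From each list the text names the 3 highest and 3 lowest log2 ratios (all where 6 or fewer were expressed). Cdkn2a, Trp63, Trp73 and Edar, which were not expressed, fall outside this rule and were named after their values were seen. The 10 genes and the lists were chosen with earlier results of these data known. Alternatives were pseudocounts of 0.1 and 5, no filter or an FPKM of at least 5, the median ratio set to 0, equal FPKM totals, upper quartile scaling and a 4-fold limit. The scripts were tested on simulated data in which each gene length was the rounded annotated mean. Implied lengths in the real data differed from that mean for 6 of the 10 genes, a case the simulation did not cover. Software was matplotlib 3.10.9, scipy 1.17.1, pandas 2.3.3, numpy 2.4.6 and Python 3.11.15.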

Additional observations from a re-analysis of the deposited data

How the results depend on the processing

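No paired analysis was possible because each group has 1 library. Across the 7 alternatives other than the 4-fold limit, the log2 ratios of Trp53, Cdkn1a, Pmaip1, Eda2r, Zmat3 and Phlda3 stayed at least 2-fold higher in all 7. Those of Mdm2, Ccng1 and Bax did in 5, the exceptions being the median ratio set to 0 and upper quartile scaling. No filter and an FPKM of at least 5 only change which genes count. They cannot alter a gene's own log2 ratio, so these tallies include them without being checked by them. Cdkn1a ranged from 3.996 to 5.39 and Pmaip1 from 1.598 to 5.58. Bbc3 ranged from -0.66 to 0.25. At 4-fold 6 of the 10 genes were higher, beside 1098 of the 12395 expressed genes.

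The median log2 ratio of the 10 genes was 2.52 and 1.40 at pseudocounts of 0.1 and 5, 1.45 once the median ratio was 0, 2.24 with equal totals and 1.44 with upper quartile scaling. That of all expressed genes was 0.82, 0.42, 0.071, 0.84 and -0.029 under the same alternatives, and 0.22 with no filter. That of the other p53 targets was 1.41, 0.56, 0.55, 1.23 and 0.53. Genes at least 2-fold higher numbered 2225 at a pseudocount of 5, 1848 once the median ratio was 0, 1866 with upper quartile scaling and 1098 at 4-fold; genes at least 2-fold lower numbered 459, 1504, 1849 and 283. Other p53 targets that were higher numbered 12, 9, 8 and 6, and those lower 5 with upper quartile scaling and 1 at 4-fold. The cause was not tested. For Pmaip1 the wild-type level rests on few reads: over its 4 read solutions the interval of the FPKM ratio reached from 29.2 to 421, and for Bbc3 from 0.838 to 1.36.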

Other observations

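The RB proteins and E2F factors, which act downstream of the kinases that p21 inhibits, form a further group. All 12 were expressed, 7 only through the library labelled LTsc1KO, and 6 were higher by 2-fold or more there, with none lower (median log2 ratio 1.02), or 3 of 11 with the median ratio set to 0 (median 0.87). Among all expressed genes 35.6% and 15.6% were higher on these scales. E2f1, an activator of S phase genes, had 13.6 FPKM (1099 reads) in the library labelled LTsc1KO and 0.313 (24 reads) in the library labelled wild type, a ratio of 43.6 (95% exact interval 29.1 to 68.3). Rbl1, which encodes p107 and is itself an E2F target, was at 9.18 in the library labelled LTsc1KO and 0.491 in the library labelled wild type (ratio 18.7, 13.4 to 26.9), and E2f8 stood at a log2 ratio of 1.93. Rb1 was lower, at 2.995 in the library labelled LTsc1KO and 4.15 in the library labelled wild type (ratio 0.722, 0.554 to 0.939), while Rbl2, which encodes p130, and E2f5 stood at 0.43 and 0.45. With the median ratio set to 0, Rb1, Rbl2 and E2f5 were at -0.87, -0.21 and -0.08.

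The lengths implied by the deposited values equalled the rounded mean transcript length in GENCODE M21 for 4 of the 10 p53 pathway genes (Trp53, Ccng1, Eda2r and Phlda3) and differed for 6. For Cdkn1a the implied length was 1172 bases, where the annotation gives 1409, and for Bax 869 bases, where it gives 647. A length scales both libraries alike and leaves the FPKM ratio as it is.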
